A study of Homo sapiens with 48 samples.

Results

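The genes examined here are 54 genes of the mitotic spindle and of chromosome segregation, out of 20241 protein-coding genes in the deposited table. They were chosen by name for what their proteins do, though with earlier results of these data known. All 54 were above 1 CPM (the reads of a gene scaled to the size of its library) in at least 3 libraries and could be tested, among 12471 such genes. RNAseq was available for PSN1, a pancreatic ductal adenocarcinoma cell line, in 3 groups of 3 libraries each. PSN1 parental cells carried no resistance selection. PSN1 TalaR-M cells were derived from them by 4 months of selection with the PARP inhibitor Talazoparib and were maintained in 50 nM of the drug. PSN1 TalaR-DF cells were selected cells that had then grown drug-free, for 4 weeks by the study's methods, while their label gives no treatment and no such time. The name TalaR-DF is used here for that history and not for a drug response. All 3 groups therefore come from a single cell line. The other cell lines of the series and the short treatments of PSN1 with DMSO or Talazoparib were not analysed here. Values are the deposited ones, read as log2 CPM, and a difference is given as a log2 fold change with its standard error (SE) from limma, a linear model fitted to all genes at once. A gene was called where the Benjamini-Hochberg adjusted p was under 0.05. The labels do not say that replicates were separate cultures, so p-values measure only the spread between these samples, which may be technical.

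Mitosis is started by cyclin B bound to the kinase CDK1, and is carried out by a spindle of microtubules that kinesin motors and the Aurora and Polo kinases assemble and move. Kinetochores tie each chromosome to the spindle, the spindle assembly checkpoint delays anaphase until all are attached, and the anaphase-promoting complex then opens the way for separation and for cytokinesis. Most of these genes are transcribed late in the cell cycle, so that their RNA is high in G2 and mitosis and low in G1. The transcription factors B-MYB (MYBL2) and FOXM1, bound with the MuvB complex at a short promoter element called the cell cycle genes homology region (CHR), switch many of them on. The trimeric factor NF-Y binds CCAAT boxes in the same promoters. PARP inhibitors trap PARP1 on DNA and leave lesions that cells carry into S phase and G2.

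The promoters were read from RefSeq (build GRCh38.p14), as windows from 250 bases before to 50 bases after each transcription start, because the members share elements there that their choice did not use. Windows were found for 46 of the 54 members, 61 windows in all. FOXM1, AURKA, TPX2, BUB3, TTK, KNTC1, RACGAP1 and UBE2C had none. A CHR (TTTGAA or TTCGAA, on either strand) was present in at least 1 window of 36 of these 46 members (78.3%), against 1487 of the 9563 tested genes with a window (15.5%). A CCAAT box (CCAAT, on either strand) was also found in 36 of the 46 (78.3%), against 43.1% of the tested genes. Both elements stood in the same window in 27 of the 46 members (58.7%), against 6.54% of the tested genes. Counted over windows, 40 of the 61 member windows (65.6%) and 16.4% of the 35116 windows in the table held a CHR, and 68.9% and 34.6% held a CCAAT box. Of the 53 CHR matches in members 31 lay in the last 100 bases before a start, with a median position of -28 relative to the start, and the median position of the CCAAT matches was -78.5. A match is a string of letters and is no evidence of binding. Only these letters were searched, so a gene without a match may still hold another form of either element. The 150 bases before the start are shown for 10 members to which the results below return, with the letters of either element, read on either strand, in capitals. In ANLN 2 CHR matches adjoin, and in MKI67 a CHR and a CCAAT box of the other strand overlap. The stretches are MKI67 at chr10:128126424-128126573 (minus strand), KIF20A at chr5:138178962-138179111 (plus strand), ANLN at chr7:36389712-36389861 (plus strand), CCNA2 at chr4:121823884-121824033 (minus strand), ZWINT at chr10:56361260-56361409 (minus strand), CCNB1 at chr5:69167000-69167149 (plus strand), PLK1 at chr16:23678739-23678888 (plus strand), TOP2A at chr17:40417897-40418046 (minus strand), NDC80 at chr18:2571407-2571556 (plus strand) and KIF2C at chr1:44739687-44739836 (plus strand).
MKI67: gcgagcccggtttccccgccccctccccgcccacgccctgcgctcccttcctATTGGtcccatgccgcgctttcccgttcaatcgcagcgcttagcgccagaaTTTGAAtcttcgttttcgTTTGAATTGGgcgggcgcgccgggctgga
KIF20A: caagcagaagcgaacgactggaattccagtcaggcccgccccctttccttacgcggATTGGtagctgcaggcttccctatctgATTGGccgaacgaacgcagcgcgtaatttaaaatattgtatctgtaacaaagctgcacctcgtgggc
ANLN: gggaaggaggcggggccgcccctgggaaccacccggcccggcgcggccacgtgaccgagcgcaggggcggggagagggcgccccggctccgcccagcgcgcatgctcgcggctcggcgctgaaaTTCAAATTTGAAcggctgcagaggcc
CCNA2: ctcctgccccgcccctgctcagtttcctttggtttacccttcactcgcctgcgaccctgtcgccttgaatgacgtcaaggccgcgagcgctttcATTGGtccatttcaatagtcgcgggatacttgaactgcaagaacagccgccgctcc
ZWINT: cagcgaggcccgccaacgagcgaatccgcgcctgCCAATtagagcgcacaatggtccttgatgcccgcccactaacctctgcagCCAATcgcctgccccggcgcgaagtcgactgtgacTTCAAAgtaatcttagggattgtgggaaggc
CCNB1: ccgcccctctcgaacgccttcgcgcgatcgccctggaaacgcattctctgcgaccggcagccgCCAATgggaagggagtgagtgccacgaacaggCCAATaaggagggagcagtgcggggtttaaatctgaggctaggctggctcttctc
PLK1: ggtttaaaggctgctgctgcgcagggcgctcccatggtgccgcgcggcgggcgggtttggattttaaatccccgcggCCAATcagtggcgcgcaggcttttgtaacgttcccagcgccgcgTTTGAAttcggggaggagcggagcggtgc
TOP2A: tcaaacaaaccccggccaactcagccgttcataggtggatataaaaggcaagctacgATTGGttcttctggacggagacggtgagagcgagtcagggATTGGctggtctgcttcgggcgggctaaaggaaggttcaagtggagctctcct
NDC80: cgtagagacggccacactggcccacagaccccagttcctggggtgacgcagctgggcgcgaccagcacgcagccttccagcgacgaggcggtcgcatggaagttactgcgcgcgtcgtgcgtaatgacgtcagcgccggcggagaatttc
KIF2C: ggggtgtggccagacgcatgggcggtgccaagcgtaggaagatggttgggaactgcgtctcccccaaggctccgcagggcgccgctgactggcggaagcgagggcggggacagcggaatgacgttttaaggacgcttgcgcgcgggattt
MKI67, ZWINT and PLK1 held both elements in the stretch shown, ANLN held only CHR letters, and KIF20A, CCNA2, CCNB1 and TOP2A held only CCAAT letters. NDC80 and KIF2C held neither in the stretch shown. CHR matches not wholly inside the stretch began at -3 and 3 in NDC80 and at -194 and -151 in TOP2A. Both genes are among the 36 members with a CHR. ZWINT has 2 windows, of which 1 is shown.

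The members lay on 19 chromosomes, with at most 7 on any of them (chromosome 1). Their longest protein-coding transcripts had a median length of 3578.5 bases, close to the 3618 bases of all tested genes, and a lower median GC content (42.2% against 48.4%). Their median level in parental cells was 6.33 log2 CPM, against 4.91 for all tested genes. Per kilobase of transcript, the most abundant member in parental cells was UBE2C (6.95 log2 CPM per kb), a ubiquitin-conjugating enzyme of the anaphase-promoting complex. CCNB1 (6.66) and CDC25B (6.65) followed. At the other end were ESPL1 (2.70), the protease separase, and CDC25C (2.75).

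Library depth, recovered from the steps between low values, ranged from 8387755 to 14973847 reads on genes above 1 CPM, and 1 CPM was worth 6.97 to 14.5 reads. The epithelial markers KRT8, KRT18 and EPCAM were above 1 CPM in every library, while CDH1 was listed at 0 in all 9. Of 5 fibroblast markers 3 were above 1 CPM in every library, COL3A1 at 9.66 to 11.5 log2 CPM, as was PECAM1 of 4 endothelial markers, and of 4 leukocyte markers PTPRC was above 1 CPM in 3 libraries and the others in none. One library stood apart. TalaR-M replicate 2 was the shallowest and correlated with the other TalaR-M libraries at r = 0.78 over 10512 genes, whereas parental libraries correlated among themselves at 0.997 and TalaR-DF libraries at 0.993. Its differences from TalaR-M replicates 1 and 3 followed transcript length. Among all tested genes under 2 kb it was higher by a median of 0.90 on the log2 scale, and at 4 kb or more it was lower, with a median difference of -1.0. The members followed the same order. The 9 members under 2 kb had a median difference of 0.35, those of 2 to 4 kb -1.14 (24 members) and those of 4 kb or more -1.82 (21 members, all lower). PTTG1 (1.88), SPC24 (1.62) and AURKB (1.11) were the highest in this library, and SMC4 (-4.10), BUB1B (-3.14) and ANLN (-3.01) the lowest. What made this library differ was not tested. It was kept in the fit of 9 libraries. Most counts and many changes, but not all, are also given from the 8 libraries without it. There TalaR-M has 2 libraries that are assumed to vary like the others. A fit of the 6 parental and TalaR-DF libraries alone is free of it altogether.

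**Figure D1:**
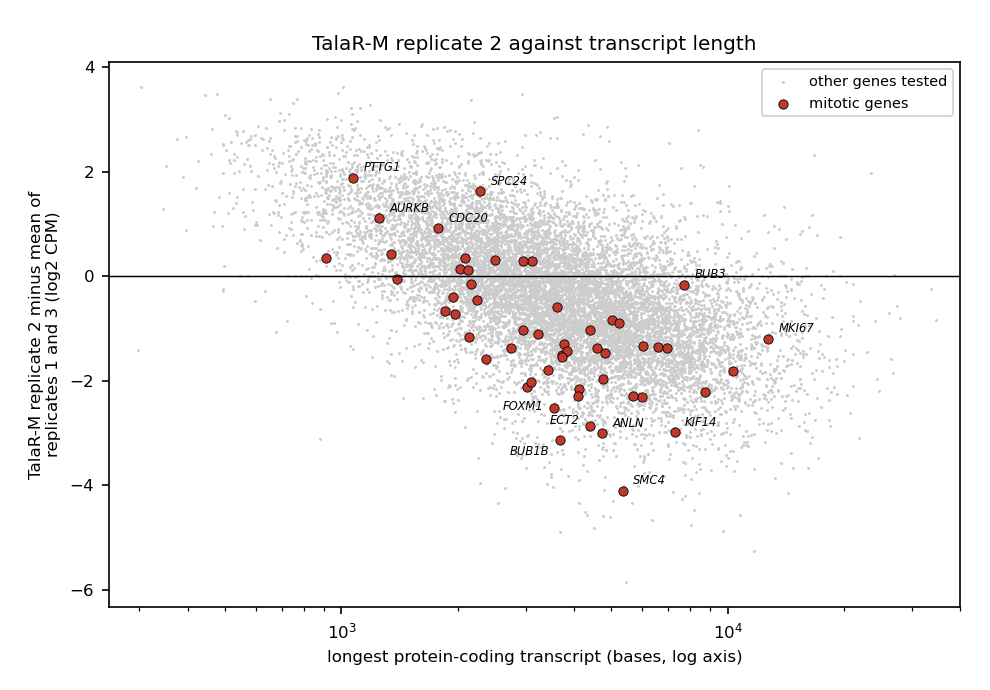
TalaR-M replicate 2 against transcript length: each point is a gene, placed by the length of its longest protein-coding transcript in bases (log axis) and by its level in TalaR-M replicate 2 minus the mean of replicates 1 and 3 (log2 CPM). The 54 mitotic genes (red) run from PTTG1 at 1.88 down to SMC4 at -4.10, and all 21 members of 4 kb or more lie below 0.

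As a group the mitotic genes were higher in the TalaR-M and TalaR-DF libraries than in the parental ones, TalaR-M replicate 2 excepted. The median level of the 54 members was 6.30, 6.33 and 6.33 log2 CPM in the parental libraries and 6.85, 6.92 and 7.01 in the TalaR-DF libraries. In TalaR-M it was 7.0 in replicate 1 and 6.73 in replicate 3, but 5.43 in replicate 2. The members' summed CPM made up 0.577% to 0.592% of all CPM in parental cells and 0.822% to 0.868% in TalaR-DF cells. TalaR-M replicates 1 and 3 gave 0.939% and 0.908%, and replicate 2 gave 0.465%. In bulk RNA, more cells in G2 or mitosis cannot be told apart from more of these transcripts in each cell.

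Between TalaR-M and parental cells, 44 of the 54 members were higher and 0 were lower without TalaR-M replicate 2, where 30.2% of all tested genes were called higher and 30.0% lower. Their median log2 fold change was 0.59 (1.51-fold), beside 0.01 over all tested genes. With all 9 libraries, 10 of the 54 passed, all of them higher (18.5% of the members), where 10.3% of all genes were called higher and 13.2% lower. No member was called lower in either of these fits by limma, nor was any lower at an unadjusted p under 0.05, where 18 and 45 members were higher with and without that library. The share of all tested genes at that unadjusted threshold was not counted, so these 2 counts cannot be set against it. With the dependence of fold changes on length and GC taken out as well, and that library left out, 45 were higher and 1 (KNTC1) lower. In that fit 85.2% of the members and 66.7% of all tested genes passed in either direction. The 10 were CCNB1, CDK1, BUB3, ZWINT, AURKB, CENPA, NDC80, SPC25, KIF2C and CDC20, and the median of the members was 0.24. The change of 16 members, among them BUB1B, TTK, CENPE and TOP2A, was below 0 over 9 libraries and above 0 without that library. With TalaR-M replicate 2 included, the 3 TalaR-M values lay above all parental values in 16 members (20.9% of all tested genes) and below them in KNTC1 and ESPL1 (28.8%). Among the members 5, CCNA2, FOXM1, KIF20A, ANLN and MKI67, rose at least 2-fold without that library, where 6.78% of all tested genes did.

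Between TalaR-DF and parental cells, 45 of the 54 members were higher and 1 (CDC25B) was lower without TalaR-M replicate 2, against 32.5% and 30.4% of all tested genes. The 6 libraries of these groups alone gave 45 higher and 1 lower too (31.9% and 30.3% of all genes). The median log2 fold change of the members was 0.57 (1.48-fold), beside 0.01 over all genes. With all 9 libraries the differences are the same, but the spread of TalaR-M replicate 2 enters their error, and 10 members were called higher (18.5%, against 6.77% of all genes) and 0 lower (11.8%). At an unadjusted p under 0.05, 15 were higher and 0 lower in that fit, and the share of all tested genes there was not counted. The 10 were CCNB1, CDK1, PLK1, BUB3, MAD2L1, ZWINT, CENPA, SPC25, KIF11 and MKI67. The 3 TalaR-DF values lay above all 3 parental values in 47 members (35.3% of all tested genes) and below them in 1, CDC25B (33.2%). ZWINT and MKI67 were at least 2-fold higher (2.73% of all genes). The comparisons of TalaR-M and of TalaR-DF share the parental libraries, so that a likeness between them is not independent.

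**Figure D2:**
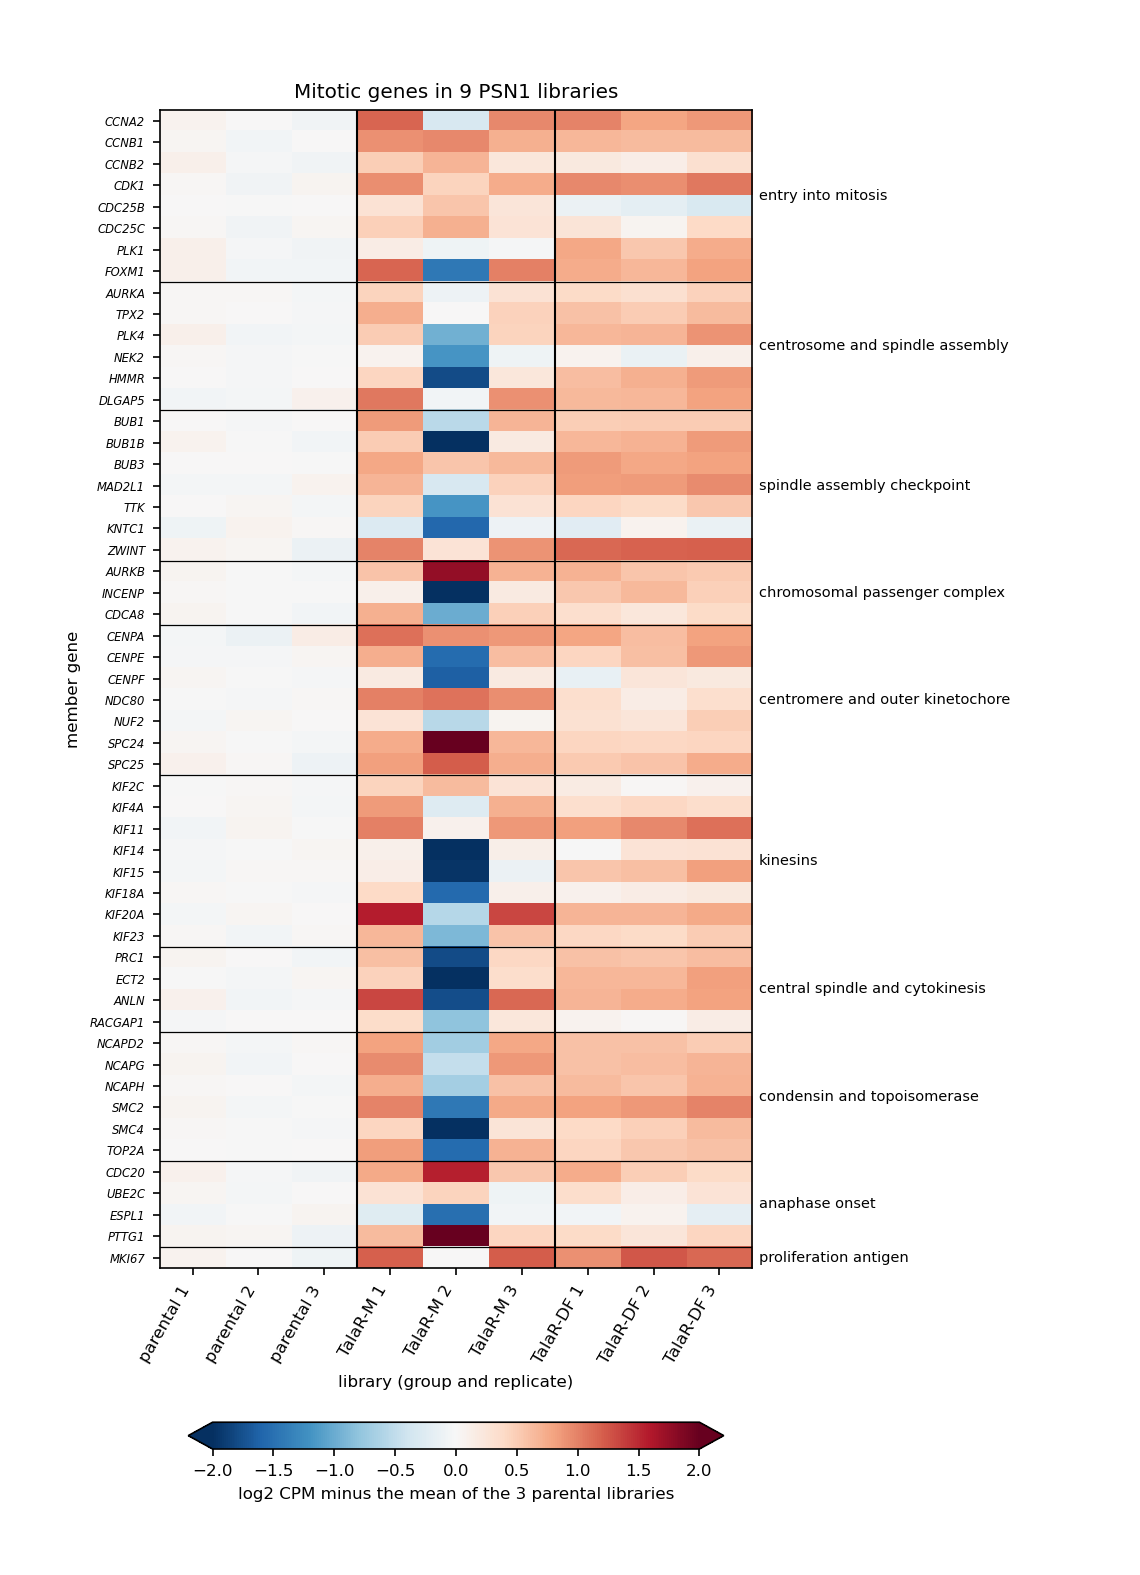
Mitotic genes in 9 PSN1 libraries: colour gives the log2 CPM of each of the 54 genes (rows, in role groups) minus the mean of the 3 parental libraries, for each library (columns). TalaR-M replicates 1 and 3 and the TalaR-DF libraries are mostly red (higher), and TalaR-M replicate 2 mixes red and dark blue, from SMC4 and BUB1B among the lowest to PTTG1 and SPC24 among the highest. Differences beyond 2 are drawn in the end colours.

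**Figure D3:**
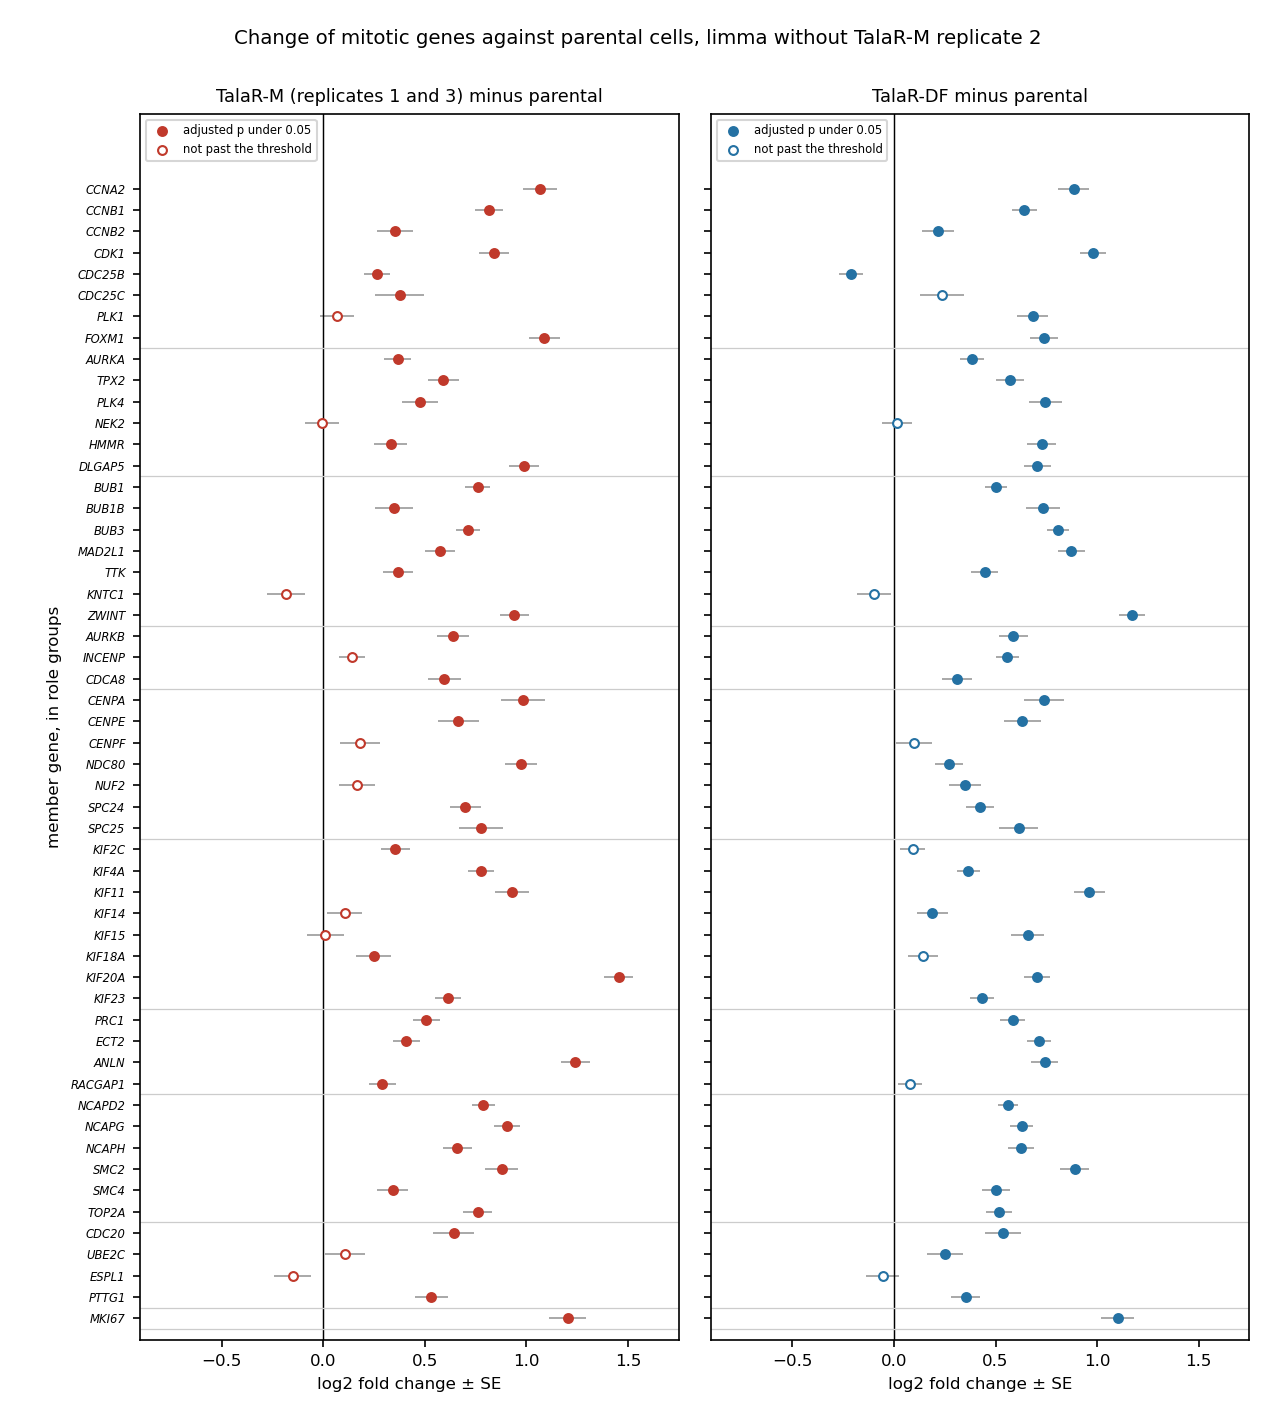
Change of mitotic genes against parental cells: points are log2 fold changes and bars their SE from limma without TalaR-M replicate 2, for TalaR-M (left) and TalaR-DF (right). Filled points passed an adjusted p of 0.05, 44 on the left and 46 on the right, and CDC25B is the only filled point below 0.

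Among the 8 genes of entry into mitosis, CCNB1 and CDK1 rose in both TalaR groups over 9 libraries. Without TalaR-M replicate 2, 7 rose in TalaR-M and 6 in TalaR-DF. Of all tested genes 30.2% and 32.5% were called higher in that fit, and 10.3% and 6.77% over 9 libraries. CCNB1, the mitotic cyclin, was 7.72, 7.63 and 7.69 log2 CPM in the parental libraries, 8.59, 8.63 and 8.40 in TalaR-M and 8.35, 8.31 and 8.30 in TalaR-DF. All TalaR libraries, replicate 2 included, lay above all parental ones. The log2 fold change was 0.86 ± 0.12 in TalaR-M over 9 libraries (adjusted p = 0.0011) and 0.64 ± 0.12 in TalaR-DF (adjusted p = 0.0061). CDK1, its kinase partner, was 6.26, 6.16 and 6.29 in parental cells, 7.17, 6.68 and 6.99 in TalaR-M and 7.20, 7.16 and 7.29 in TalaR-DF. It too was called over 9 libraries, with changes of 0.71 ± 0.15 (adjusted p = 0.0094) and 0.98 ± 0.15 (adjusted p = 0.0023). CCNA2, the cyclin of S phase and G2, was higher in TalaR-M without replicate 2 (1.07 ± 0.08, adjusted p = 6.4e-07), while over 9 libraries its change was 0.60 ± 0.35 (adjusted p = 0.23). In TalaR-DF it was 0.88 ± 0.08 (adjusted p = 1.2e-06, 8 libraries).

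FOXM1, which activates the late cell cycle genes, was 5.97, 5.82 and 5.82 in the parental libraries, 7.04, 4.44 and 6.87 in TalaR-M and 6.61, 6.53 and 6.67 in TalaR-DF. Replicate 2 was the only TalaR library below the parental range. Its change in TalaR-M was 1.09 ± 0.08 without that library (adjusted p = 2.3e-07) and 0.25 ± 0.60 with it (adjusted p = 0.77). In TalaR-DF FOXM1 rose by 0.74 ± 0.07 (adjusted p = 2.3e-06, 8 libraries).

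PLK1 and CDC25B differed between TalaR-M and TalaR-DF. PLK1, the Polo kinase that drives mitotic entry and spindle assembly, was 7.13, 7.01 and 6.97 in parental cells, 7.19, 6.96 and 7.02 in TalaR-M and 7.80, 7.58 and 7.77 in TalaR-DF. The TalaR-M and parental values overlapped, and every TalaR-DF value lay above both. PLK1 rose in TalaR-DF by 0.68 ± 0.13 over 9 libraries (adjusted p = 0.0068), and in TalaR-M its change was 0.02 ± 0.13 (adjusted p = 0.93). TalaR-M was lower than TalaR-DF by 0.66 ± 0.13 (adjusted p = 0.013). CDC25B, a phosphatase that activates CDK1, was 8.30, 8.27 and 8.29 in parental cells, 8.57, 8.84 and 8.53 in TalaR-M and 8.16, 8.09 and 7.97 in TalaR-DF, and the 3 groups did not overlap. It was higher in TalaR-M without replicate 2 (0.27 ± 0.07, adjusted p = 0.0042) and over 9 libraries 0.36 ± 0.13 (adjusted p = 0.080). In TalaR-DF it was lower (-0.21 ± 0.06, adjusted p = 0.0079), but this call was lost and the sign turned once the dependence of fold changes on length and GC was taken out (0.03, adjusted p = 0.43). That removal also moved the median TalaR-DF change of all genes, from 0.01 to 0.095, and CDC25B stayed below this median. TalaR-M exceeded TalaR-DF by 0.57 ± 0.13 over 9 libraries (adjusted p = 0.025) and 0.33 with that dependence taken out and replicate 2 left out (adjusted p = 8.9e-06). CCNB2 and CDC25C changed less, by 0.36 ± 0.09 and 0.38 ± 0.12 in TalaR-M without replicate 2, and of the pair only CCNB2 passed in TalaR-DF (0.22 ± 0.08, adjusted p = 0.033).

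**Figure D4:**
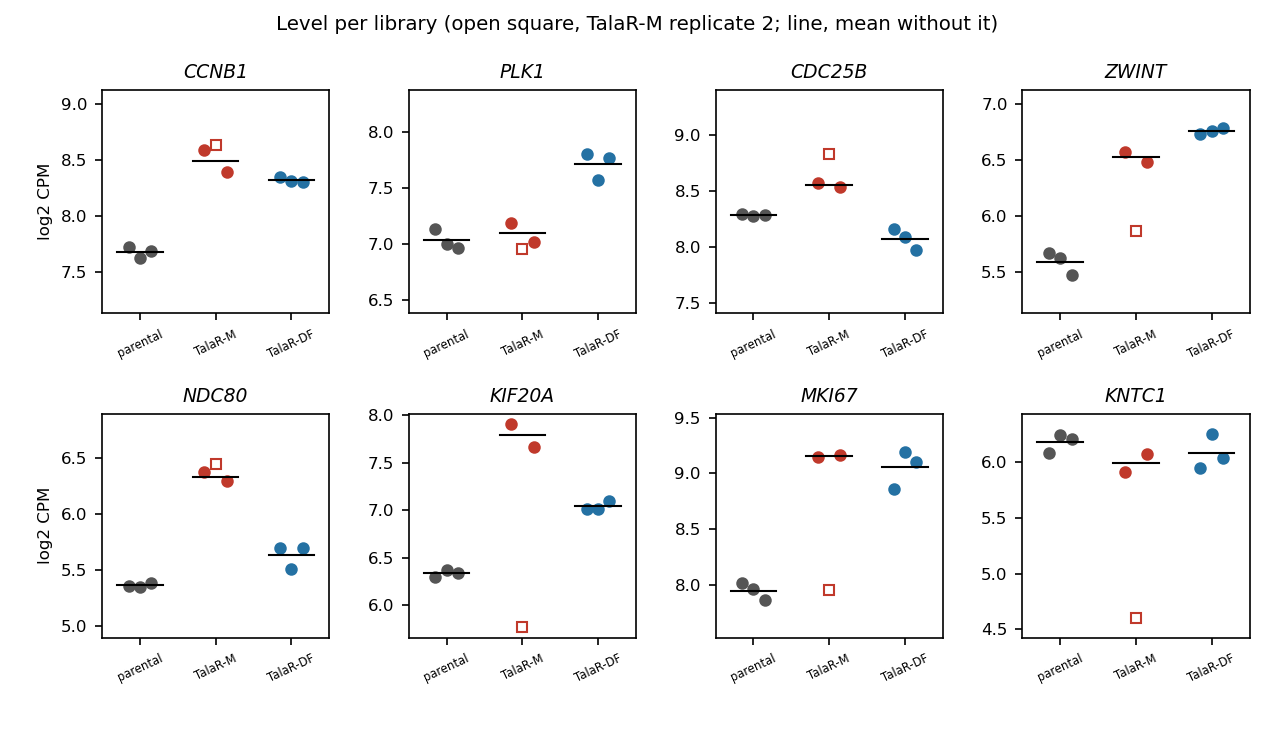
Levels of 8 mitotic genes: each point is the log2 CPM of a library, the open square is TalaR-M replicate 2, and the line is the group mean without it. CCNB1 is higher in both TalaR groups, PLK1 in TalaR-DF, NDC80 mainly in TalaR-M, KIF20A highest in TalaR-M replicates 1 and 3, and KNTC1 lowest in TalaR-M replicate 2. Each panel has its own vertical range of at least 2 log2 units.

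In the centrosome and spindle assembly group, 5 of the 6 members were higher in TalaR-M without replicate 2 and 5 in TalaR-DF. The shares of all tested genes were 30.2% and 32.5%. The exception was NEK2, a centrosome kinase (-0.01 ± 0.08 and 0.01 ± 0.07, 8 libraries). None of the 6 passed over 9 libraries in either group (1 and 3 were higher at an unadjusted p under 0.05, where the share of all genes was not counted). AURKA, the kinase of the spindle poles, was 7.70, 7.71 and 7.63 in parental cells, 8.13, 7.58 and 7.97 in TalaR-M and 8.06, 8.0 and 8.13 in TalaR-DF. Without replicate 2 it rose by 0.37 ± 0.07 in TalaR-M (adjusted p = 6.1e-04) and by 0.38 ± 0.06 in TalaR-DF (adjusted p = 1.7e-04). TPX2, which activates AURKA on spindle microtubules, was 7.88, 7.86 and 7.83 in parental, 8.57, 7.86 and 8.32 in TalaR-M and 8.43, 8.36 and 8.49 in TalaR-DF cells. Its changes without replicate 2 were 0.59 ± 0.08 and 0.57 ± 0.07. DLGAP5, a microtubule-stabilising protein, was 6.38, 6.40 and 6.52 in parental, 7.49, 6.38 and 7.35 in TalaR-M and 7.08, 7.09 and 7.24 in TalaR-DF cells, with replicate 2 inside the parental range. HMMR, a spindle protein also known as a hyaluronan receptor, was 6.33, 6.29 and 6.33 in parental, 6.76, 4.53 and 6.55 in TalaR-M and 6.94, 7.03 and 7.17 in TalaR-DF cells. It rose more in TalaR-DF (0.73 ± 0.07, adjusted p = 4.3e-06) than in TalaR-M without replicate 2 (0.33 ± 0.08, adjusted p = 0.0039), and the difference between the groups passed (-0.39 ± 0.08, adjusted p = 0.0018). PLK4, the kinase of centriole duplication, showed changes of 0.48 ± 0.09 in TalaR-M and 0.75 ± 0.08 in TalaR-DF in the same fit, and of -0.00 ± 0.36 in TalaR-M over 9 libraries.

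Of the 7 spindle assembly checkpoint genes, 6 were higher in each TalaR group without replicate 2 (30.2% and 32.5% of all tested genes). Over 9 libraries 2 passed in TalaR-M (BUB3 and ZWINT) and 3 in TalaR-DF (these and MAD2L1), all higher. In that fit 10.3% and 6.77% of all genes were called higher. ZWINT, a kinetochore protein that recruits the RZZ complex, was 5.66, 5.63 and 5.47 in parental cells, 6.57, 5.86 and 6.48 in TalaR-M and 6.73, 6.76 and 6.78 in TalaR-DF. Every TalaR library lay above every parental one. ZWINT rose by 1.17 ± 0.19 in TalaR-DF (2.25-fold, adjusted p = 0.0036, 9 libraries), the largest change of any member in that comparison, and by 0.72 ± 0.19 in TalaR-M (adjusted p = 0.029). MAD2L1, the checkpoint protein that holds back CDC20, was 6.07, 6.06 and 6.17 in parental, 6.79, 5.79 and 6.57 in TalaR-M and 6.94, 6.95 and 7.04 in TalaR-DF cells. It rose in TalaR-DF by 0.87 ± 0.24 (adjusted p = 0.036, 9 libraries) and in TalaR-M by 0.58 ± 0.08 without replicate 2 (adjusted p = 4.4e-05). BUB3 was 6.77, 6.77 and 6.76 in parental, 7.54, 7.32 and 7.42 in TalaR-M and 7.62, 7.54 and 7.58 in TalaR-DF cells, and replicate 2 lay above all parental libraries. Its longest transcript has 7703 bases. The kinases BUB1 and TTK and the pseudokinase BUB1B were higher without replicate 2, by 0.76 ± 0.06, 0.37 ± 0.07 and 0.35 ± 0.09 in TalaR-M and by 0.50 ± 0.05, 0.45 ± 0.07 and 0.73 ± 0.08 in TalaR-DF. Over 9 libraries the TalaR-M changes were 0.33 ± 0.32, -0.15 ± 0.38 and -0.70 ± 0.74, none of them called. KNTC1, a subunit of the RZZ complex, passed in neither (-0.18 ± 0.09 and -0.10 ± 0.08), but with the dependence on length and GC taken out and replicate 2 left out it was called lower in TalaR-M (-0.23, adjusted p = 0.033).

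The chromosomal passenger complex corrects wrong attachments. Its kinase AURKB was 5.12, 5.06 and 5.03 in parental cells, 5.65, 6.82 and 5.77 in TalaR-M and 5.76, 5.62 and 5.59 in TalaR-DF. Replicate 2 was the highest library by more than 1 log2 unit, and the other TalaR libraries all exceeded the parental ones. AURKB rose in TalaR-M by 1.01 ± 0.28 over 9 libraries (adjusted p = 0.036) and by 0.64 ± 0.08 without replicate 2 (adjusted p = 2.9e-05). In TalaR-DF the change was 0.59 ± 0.07 (adjusted p = 2.0e-05, 8 libraries). INCENP, the scaffold of the complex, was 6.52, 6.49 and 6.50 in parental, 6.61, 4.49 and 6.69 in TalaR-M and 7.04, 7.15 and 6.99 in TalaR-DF cells. It rose in TalaR-DF by 0.56 ± 0.06 (adjusted p = 5.7e-06), and in TalaR-M without replicate 2 the change was 0.14 ± 0.06 (adjusted p = 0.071). With the dependence on length and GC taken out as well, the TalaR-M change was called (0.24, adjusted p = 8.5e-04). CDCA8, borealin, rose more in TalaR-M (0.60 ± 0.08) than in TalaR-DF (0.31 ± 0.07) without replicate 2, and the groups differed by 0.28 ± 0.08 (adjusted p = 0.012).

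At the centromere and outer kinetochore, 5 of 7 members were higher in TalaR-M without replicate 2 and 6 in TalaR-DF (30.2% and 32.5% of all tested genes). Over 9 libraries CENPA, NDC80 and SPC25 passed in TalaR-M, and CENPA and SPC25 in TalaR-DF. In that fit 10.3% and 6.77% of all genes were called higher. NDC80, which with NUF2, SPC24 and SPC25 forms the complex that grips microtubule ends, was 5.36, 5.34 and 5.38 in parental cells, 6.38, 6.45 and 6.29 in TalaR-M and 5.70, 5.50 and 5.70 in TalaR-DF. The 3 groups did not overlap, and TalaR-M replicate 2 lay within 0.16 of the other TalaR-M libraries. It rose by 1.01 ± 0.12 in TalaR-M over 9 libraries (2.02-fold, adjusted p = 4.8e-04). In TalaR-DF the change was 0.27 ± 0.07 (adjusted p = 0.0043, 8 libraries, and 0.17 over 9), so that TalaR-M exceeded TalaR-DF by 0.74 ± 0.12 (adjusted p = 0.0055, 9 libraries). Between TalaR-M and TalaR-DF its partners NUF2, SPC24 and SPC25 differed by -0.18 ± 0.09, 0.27 ± 0.08 and 0.16 ± 0.11 without replicate 2, of which SPC24 alone passed. NUF2 rose by 0.35 ± 0.08 in TalaR-DF (adjusted p = 0.0023) and changed by 0.17 ± 0.09 in TalaR-M without replicate 2 (adjusted p = 0.12). SPC24 was 4.64, 4.59 and 4.55 in parental, 5.34, 6.92 and 5.25 in TalaR-M and 5.02, 5.01 and 5.03 in TalaR-DF cells, and SPC25 was 3.83, 3.77 and 3.64 in parental, 4.57, 4.95 and 4.48 in TalaR-M and 4.27, 4.32 and 4.50 in TalaR-DF cells. Both were higher in every TalaR library than in any parental one. CENPA, the histone H3 variant that marks centromeres, was 4.19, 4.12 and 4.38 in parental, 5.33, 5.15 and 5.10 in TalaR-M and 5.03, 4.84 and 5.04 in TalaR-DF cells, and rose by 0.96 ± 0.14 in TalaR-M (adjusted p = 0.0017) and 0.74 ± 0.14 in TalaR-DF (adjusted p = 0.0076), both over 9 libraries. CENPE, a kinesin of the kinetochore, was higher by 0.67 ± 0.10 and 0.63 ± 0.09 without replicate 2, and the TalaR-M change over 9 libraries was -0.07 ± 0.53. CENPF passed in neither (0.18 ± 0.10 and 0.10 ± 0.09), though in TalaR-DF it did with the dependence on length and GC taken out (0.14, adjusted p = 0.039). The median change of all genes there was 0.095.

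The changes of the 8 kinesins in TalaR-M without replicate 2 ran from 0.01 (KIF15) to 1.45 (KIF20A). KIF20A, the motor that carries the passenger complex to the central spindle, was 6.30, 6.37 and 6.34 in parental cells, 7.91, 5.77 and 7.67 in TalaR-M and 7.02, 7.01 and 7.09 in TalaR-DF. TalaR-M replicates 1 and 3 were the highest libraries and replicate 2 the lowest of all 9. Without replicate 2 KIF20A rose by 1.45 ± 0.07 in TalaR-M (2.74-fold, adjusted p = 1.3e-08), the largest change of any member there, and by 0.71 ± 0.06 in TalaR-DF (adjusted p = 2.2e-06). Over 9 libraries the TalaR-M change was 0.78 ± 0.49 (adjusted p = 0.27). KIF11, the bipolar motor that separates spindle poles, was 6.33, 6.45 and 6.39 in parental, 7.39, 6.48 and 7.25 in TalaR-M and 7.21, 7.35 and 7.50 in TalaR-DF cells. It passed in TalaR-DF over 9 libraries (0.96 ± 0.23, adjusted p = 0.022) and in TalaR-M without replicate 2 (0.93 ± 0.08, adjusted p = 2.1e-06). KIF15, which can stand in for KIF11, was 6.26, 6.30 and 6.30 in parental, 6.42, 4.33 and 6.17 in TalaR-M and 6.84, 6.89 and 7.10 in TalaR-DF cells. It rose in TalaR-DF (0.66 ± 0.08, adjusted p = 2.4e-05, 8 libraries) and not detectably in TalaR-M (0.01 ± 0.09, adjusted p = 0.92). KIF2C, a microtubule depolymerase, was 6.53, 6.56 and 6.52 in parental, 6.98, 7.18 and 6.80 in TalaR-M and 6.70, 6.56 and 6.63 in TalaR-DF cells, and was called in TalaR-M over 9 libraries (0.45 ± 0.13, adjusted p = 0.037) but not in TalaR-DF (0.09 ± 0.06, adjusted p = 0.21, 8 libraries, and 0.16, adjusted p = 0.0046, once the dependence on length and GC was taken out). With that dependence taken out the median TalaR-DF change of all genes was 0.095. For KIF2C TalaR-M and TalaR-DF differed by 0.26 ± 0.07 without replicate 2 (adjusted p = 0.0082). KIF4A and KIF23 were higher in both without replicate 2, by 0.78 ± 0.06 and 0.61 ± 0.06 in TalaR-M and 0.37 ± 0.06 and 0.43 ± 0.06 in TalaR-DF. KIF18A and KIF14 had smaller changes without replicate 2, the largest of them 0.25 ± 0.08 for KIF18A in TalaR-M. Over 9 libraries the TalaR-M changes were -0.35 ± 0.44 for KIF18A and -0.89 ± 0.71 for KIF14, neither called. In TalaR-DF KIF14 (0.19 ± 0.08) passed with 8 libraries but not with 6, and KIF18A (0.14 ± 0.08) with 6 but not with 8.

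All 4 genes of the central spindle and cytokinesis were higher in TalaR-M without replicate 2, and 3 in TalaR-DF (30.2% and 32.5% of all tested genes). None passed over 9 libraries, nor at an unadjusted p under 0.05. ANLN, the anillin of the contractile ring, was 7.20, 7.06 and 7.09 in parental, 8.44, 5.35 and 8.27 in TalaR-M and 7.79, 7.86 and 7.92 in TalaR-DF cells. It rose by 1.24 ± 0.07 in TalaR-M (2.36-fold, adjusted p = 5.0e-08) and by 0.74 ± 0.06 in TalaR-DF (adjusted p = 1.5e-06). ECT2, the RhoA exchange factor of cytokinesis, was 6.68, 6.65 and 6.72 in parental, 7.14, 4.23 and 7.04 in TalaR-M and 7.35, 7.34 and 7.50 in TalaR-DF cells, with the larger change in TalaR-DF (0.71 ± 0.06 against 0.41 ± 0.07 in TalaR-M). PRC1, which bundles the central spindle, was 6.68, 6.63 and 6.57 in parental, 7.23, 4.84 and 7.04 in TalaR-M and 7.21, 7.18 and 7.24 in TalaR-DF cells and changed by 0.51 ± 0.07 and 0.58 ± 0.06. RACGAP1 was higher in TalaR-M (0.29 ± 0.07, adjusted p = 0.0025, beside -0.08 ± 0.28 over 9 libraries) and not called in TalaR-DF (0.08 ± 0.06, adjusted p = 0.26). Except where 9 libraries are named, these values are without replicate 2, which lay below all parental libraries for each of the 4.

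Condensin and topoisomerase II compact and untangle chromosomes. All 6 members rose in both TalaR groups without replicate 2, where 30.2% and 32.5% of all tested genes were called higher. Their changes ran from 0.34 (SMC4) to 0.90 (NCAPG) in TalaR-M and from 0.50 (SMC4) to 0.89 (SMC2) in TalaR-DF. TOP2A was 8.69, 8.69 and 8.70 in parental, 9.53, 7.16 and 9.38 in TalaR-M and 9.12, 9.23 and 9.28 in TalaR-DF cells, and rose by 0.76 ± 0.07 (adjusted p = 2.8e-06) and 0.52 ± 0.06 (adjusted p = 2.4e-05). NCAPG was 5.80, 5.69 and 5.76 in parental, 6.69, 5.27 and 6.62 in TalaR-M and 6.33, 6.36 and 6.44 in TalaR-DF cells, and NCAPH 5.63, 5.60 and 5.56 in parental, 6.33, 4.92 and 6.18 in TalaR-M and 6.23, 6.14 and 6.30 in TalaR-DF cells. SMC4, at 7.65, 7.61 and 7.61 in parental, 8.05, 3.86 and 7.88 in TalaR-M and 8.02, 8.10 and 8.26 in TalaR-DF cells, had the widest gap of any member between replicate 2 and the other TalaR-M libraries. None of the 6 passed over 9 libraries, adjusted or at an unadjusted p under 0.05, with TalaR-M changes from -1.03 for SMC4 to 0.44 for NCAPG.

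Of the 4 genes of anaphase onset, CDC20 and PTTG1 were higher in both groups without replicate 2 (30.2% and 32.5% of all tested genes). CDC20, the activator of the anaphase-promoting complex, was 7.48, 7.36 and 7.33 in parental, 8.14, 8.95 and 7.93 in TalaR-M and 8.13, 7.88 and 7.78 in TalaR-DF cells. It was called in TalaR-M over 9 libraries (0.95 ± 0.25, adjusted p = 0.029) and without replicate 2 (0.64 ± 0.10, adjusted p = 1.8e-04), and in TalaR-DF over 8 libraries (0.54 ± 0.09, adjusted p = 2.7e-04). PTTG1, securin, was 6.45, 6.43 and 6.30 in parental, 7.02, 8.81 and 6.83 in TalaR-M and 6.78, 6.64 and 6.82 in TalaR-DF cells, and replicate 2 stood more than 1.7 log2 units above every other library. UBE2C passed in TalaR-DF alone (0.25 ± 0.09, adjusted p = 0.026), and its TalaR-M change was 0.11 ± 0.10 (adjusted p = 0.37). TalaR-M against TalaR-DF did not pass for this gene (-0.15 ± 0.10, adjusted p = 0.25). With the dependence on length and GC taken out it did (-0.25, adjusted p = 0.0042), where the median difference of all genes was -0.11. ESPL1 passed in neither (-0.15 ± 0.09 and -0.06 ± 0.08), but with the dependence on length and GC taken out and replicate 2 left out its TalaR-DF change turned to 0.24 (adjusted p = 0.0047). The median TalaR-DF change of all genes there was 0.095. MKI67, the proliferation antigen Ki-67 that coats mitotic chromosomes, was 8.02, 7.96 and 7.87 in parental, 9.14, 7.96 and 9.16 in TalaR-M and 8.86, 9.19 and 9.10 in TalaR-DF cells. It rose in TalaR-DF by 1.10 ± 0.31 over 9 libraries (2.15-fold, adjusted p = 0.041) and in TalaR-M by 1.20 ± 0.09 without replicate 2 (2.30-fold, adjusted p = 4.4e-07). Replicate 2 lay within the parental range.

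The comparison of TalaR-M with TalaR-DF set selected cells kept in the drug beside selected cells grown without it. The presence of the drug and any change in drug response cannot be told apart in it. Without replicate 2, 16 of the 54 members were higher and 9 lower in TalaR-M, beside 23.5% and 25.3% of all tested genes, and their median difference was 0.07. Over 9 libraries CDC25B and NDC80 were higher (7.79% of all genes), PLK1 was lower (4.25%), and the median was -0.30, beside -0.09 over all genes. The 3 values of the groups did not overlap in 7 members that were higher in TalaR-M (16.7% of all genes) and in 9 that were lower (24.1%). The members that were higher without replicate 2 were led by KIF20A (0.75 ± 0.07), NDC80 (0.70 ± 0.08), ANLN (0.50 ± 0.07), CDC25B (0.48 ± 0.07), KIF4A (0.41 ± 0.06) and FOXM1 (0.35 ± 0.08). Those that were lower were KIF15 (-0.65 ± 0.09), PLK1 (-0.61 ± 0.08), INCENP (-0.41 ± 0.06), HMMR (-0.39 ± 0.08), BUB1B (-0.39 ± 0.09), ECT2 (-0.31 ± 0.07), MAD2L1 (-0.30 ± 0.08), PLK4 (-0.27 ± 0.09) and ZWINT (-0.23 ± 0.07). All changes were under 2-fold. AURKA, CDK1 and MKI67 passed neither here (-0.02 ± 0.07, -0.14 ± 0.07 and 0.10 ± 0.09, adjusted p from 0.14 to 0.87) nor after rescaling or removal of the dependence on length and GC, and the sign turned for AURKA and MKI67 in 1 of these. CCNB1 differed by 0.17 ± 0.07 (adjusted p = 0.053) and passed after rescaling (0.21, adjusted p = 0.0050) and after removal of that dependence (0.19, adjusted p = 0.0039). None of the 25 calls changed direction when the libraries were rescaled or the dependence on length and GC was taken out, without replicate 2. All 25 were still called after rescaling. With that dependence taken out 24 were, and NCAPD2 was not (0.07, adjusted p = 0.13). Over 9 libraries, however, 10 of the 16 that were higher had a difference below 0, none of them called.

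**Figure D5:**
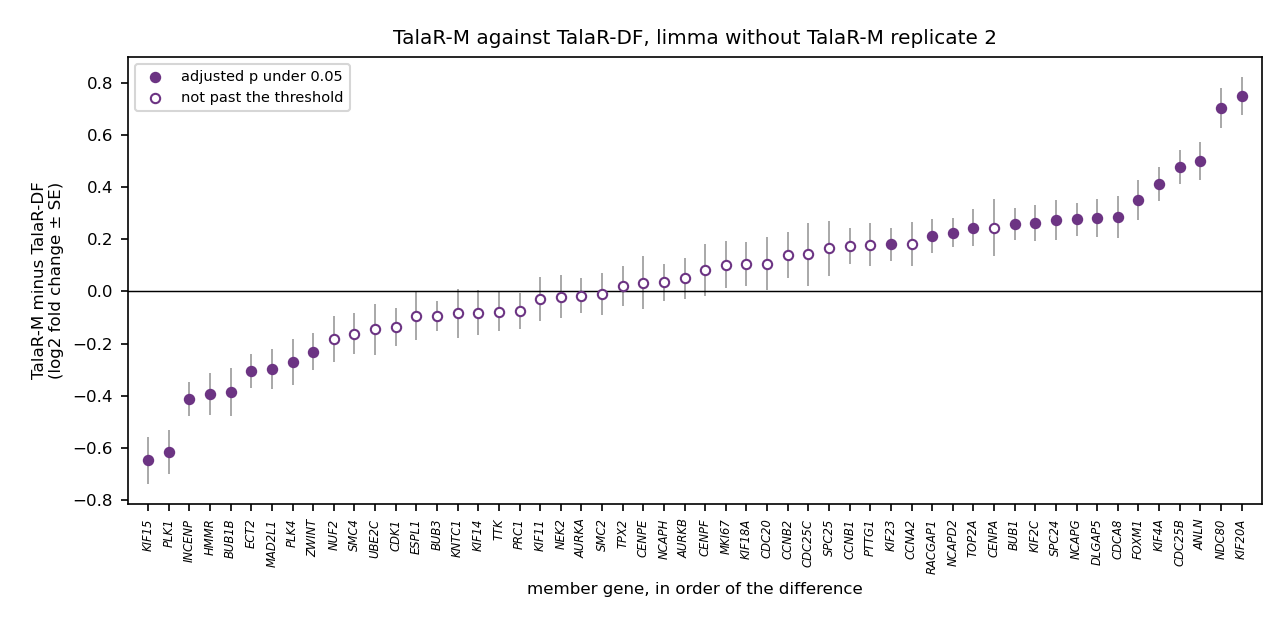
TalaR-M against TalaR-DF: the 54 genes are ordered by their log2 fold change without TalaR-M replicate 2, with its SE as bars, and filled points passed an adjusted p of 0.05. KIF15 and PLK1 lie lowest (-0.65 and -0.61) and KIF20A and NDC80 highest (0.75 and 0.70).

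A wider list held 64 tested mitotic genes that are not members, among them the SKA complex, inner centromere proteins, cohesin and subunits of the anaphase-promoting complex. Without replicate 2, 38 were higher and 6 lower in TalaR-M (median 0.36, beside 30.2% and 30.0% of all genes), and 44 were higher and 4 lower in TalaR-DF (median 0.41, beside 32.5% and 30.4%). Over 9 libraries 16 were higher and 1 lower in TalaR-M (median 0.07, beside 10.3% and 13.2% of all genes), and 9 were higher in TalaR-DF (beside 6.77%). The genes at least 2-fold higher over 9 libraries included CENPM, a subunit of the inner kinetochore, at 2.25, 2.58 and 2.58 in parental, 4.07, 5.81 and 3.99 in TalaR-M and 3.72, 3.84 and 3.31 in TalaR-DF cells (2.15 ± 0.45 in TalaR-M, adjusted p = 0.011). Its neighbour in the complex CENPN (1.60 ± 0.22, adjusted p = 0.0012), CENPT (1.12 ± 0.34, adjusted p = 0.045), the spindle protein TACC3 (1.11 ± 0.30, adjusted p = 0.031) and survivin (BIRC5, 1.04 ± 0.29, adjusted p = 0.035) also rose at least 2-fold in TalaR-M. For CENPM, CENPN, CENPT, TACC3 and BIRC5 replicate 2 was the highest library. Without it CENPM and CENPN rose by 1.56 ± 0.17 and 1.36 ± 0.11. CENPT, TACC3 and BIRC5 then rose by less than 2-fold (0.68 ± 0.11, 0.71 ± 0.06 and 0.66 ± 0.08). SKA3 was at least 2-fold higher in TalaR-DF (1.14 ± 0.12, adjusted p = 3.9e-04), as was PKMYT1, an inhibitory kinase of CDK1 (1.00 ± 0.15, adjusted p = 0.0027).

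Of 23 regulators of the G2/M programme, 11 were higher and 4 lower in TalaR-M without replicate 2, and 14 higher and 3 lower in TalaR-DF (medians 0.21 and 0.36). In that fit 30.2% of all genes were higher and 30.0% lower in TalaR-M, and 32.5% and 30.4% in TalaR-DF. Over 9 libraries 4 were higher and 1 lower in TalaR-M (median -0.26), and 5 higher and 1 lower in TalaR-DF. Of all genes 10.3% were higher and 13.2% lower in TalaR-M there, and 6.77% and 11.8% in TalaR-DF. MYBL2 was 6.87, 6.85 and 6.84 in parental cells, 7.69, 8.12 and 7.50 in TalaR-M and 7.37, 7.20 and 7.29 in TalaR-DF. It rose by 0.92 ± 0.17 in TalaR-M (adjusted p = 0.0050, 9 libraries), 0.75 ± 0.07 without replicate 2, and 0.43 ± 0.06 in TalaR-DF (adjusted p = 9.5e-05, 8 libraries). CDKN1A, the CDK inhibitor p21 that p53 induces, was low throughout, at 2.62, 2.18 and 2.43 in parental, 2.20, 1.64 and 1.51 in TalaR-M and 0.67, 0.22 and 0.79 in TalaR-DF cells. It fell in TalaR-DF by 1.85 on the log2 scale (adjusted p = 1.0e-03, 9 libraries), and its change in TalaR-M was -0.62 ± 0.24 (adjusted p = 0.094). Among the E2F factors, E2F8, which represses genes of the cell cycle, was 1.45, 1.49 and 1.45 in parental, 4.69, 1.87 and 4.32 in TalaR-M and 3.86, 4.00 and 4.16 in TalaR-DF cells. Its change was 2.17 ± 0.63 in TalaR-M (adjusted p = 0.041), 3.04 ± 0.14 without replicate 2, and 2.54 ± 0.63 in TalaR-DF (adjusted p = 0.026). The activators E2F2 (2.07 ± 0.14 and 1.32 ± 0.14) and E2F1 (1.44 ± 0.26 and 0.99 ± 0.26) also rose in both, all over 9 libraries. Without replicate 2 the TalaR-M changes of E2F2 and E2F1 were 2.08 ± 0.14 and 1.12 ± 0.10.

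Among 14 G1/S cyclins, kinases and CDK inhibitors, 8 were higher and 2 lower in TalaR-M without replicate 2, and 8 higher and 5 lower in TalaR-DF, beside the same shares of all genes. Over 9 libraries 4 were higher and 1 lower in TalaR-M (median 0.24), and 3 higher and 2 lower in TalaR-DF (median 0.23). Of all genes 10.3% were higher and 13.2% lower in TalaR-M there, and 6.77% and 11.8% in TalaR-DF. CDKN2C, the CDK4 and CDK6 inhibitor p18, had the widest change of the lists examined. It was 0.13, 0.79 and 0.60 in parental, 4.89, 4.73 and 4.64 in TalaR-M and 2.46, 2.33 and 2.42 in TalaR-DF cells (4.25 ± 0.19, adjusted p = 2.0e-06, and 1.90 ± 0.19, adjusted p = 2.3e-04). CDKN2B, p15, fell in both (by 1.20 ± 0.28, adjusted p = 0.018, and 0.98 ± 0.28, adjusted p = 0.047). Without replicate 2 its TalaR-M change was -0.83 ± 0.08, under 2-fold. CDKN1C, p57, fell in TalaR-DF (by 1.59 ± 0.32, adjusted p = 0.0097). CDC25A, the phosphatase of the G1/S transition, rose in TalaR-DF by 1.03 ± 0.12 (adjusted p = 6.5e-04) and in TalaR-M by 0.83 ± 0.12 (adjusted p = 0.0017). Except where replicate 2 was left out, these values are over 9 libraries.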

How the data were processed

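RNAseq of 9 PSN1 libraries (parental, TalaR-M and TalaR-DF, 3 each) was taken from 1 table of protein-coding genes. The deposited values, from stranded poly(A) libraries, were read as log2 CPM of reads per gene. This unit, a small prior count and a floor that set values under 0 to 0 were inferred from the values themselves. With such a floor, changes of low genes are understated. The submitters' processing notes name build hg38. The aligner, counter and normalization tool are not given in the sources used here. Columns marked maintain and withdraw were read as TalaR-M and TalaR-DF. Because the values are no counts, they were fitted on the log2 scale with limma 3.58.1 (R 4.3.3; lmFit and eBayes with a trend, group as the only term) on the 12471 genes above 0 in at least 3 libraries. Adjusted p-values are Benjamini-Hochberg over all of these, two-sided, with a threshold of 0.05. The fit was tested on simulated data. An exact permutation test of 3 libraries against 3 cannot go below p = 0.1 and was not used. Depth was recovered from the steps between values under 50 CPM, which came out as whole reads within 0.1 of a read; it sets the counting error of low genes only.

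The members and gene lists were chosen with earlier results of these data known, and no test was made over a list. By rule, values per library were given for the member with the largest called change in each role group and comparison (the smallest adjusted p where none was called), every member changed at least 2-fold, and AURKA, AURKB, PLK1, CCNB1, CDK1, TOP2A, FOXM1 and MKI67. Outside the lists of members, genes changed at least 2-fold, CDKN1A and MYBL2 were named. Other members were named after their values were seen. Transcript lengths and GC came from GENCODE 44 and promoters from RefSeq. Scripts ran in Python 3.11.15 with figures by matplotlib 3.10.9. The alternatives tried were an added pseudocount of 8 CPM, no filter, a filter of 5 CPM, no trend, array weights, rescaling by median ratio, removal of the dependence on length and GC, 2 groups only, a fold of at least 2, a replicate block and leaving out each library. Combining the 2-fold rule, the rescaling and the length and GC removal with leaving out TalaR-M replicate 2 was decided after seeing the data.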

Additional observations from a re-analysis of the deposited data

How the results depend on the processing

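The number of members called depended on TalaR-M replicate 2 and on the threshold. Over 9 libraries 10 members were called in TalaR-M against parental, 10 in TalaR-DF against parental and 3 in TalaR-M against TalaR-DF. In that order, leaving out 1 library at a time gave 6 to 44, 6 to 46 and 1 to 25, with 44, 46 and 25 without TalaR-M replicate 2. The 6 came without any 1 parental library in both comparisons with parental cells, without TalaR-DF replicate 2 or 3 in both and without TalaR-DF replicate 1 in the second, and the 1 came without TalaR-DF replicate 1 or 3. Array weights gave 43, 45 and 21, fits of 2 groups only 5, 46 and 1, and a fold of at least 2 gave 2, 2 and 0 (5, 2 and 0 without replicate 2). Removal of the dependence on length and GC gave 24, 23 and 5 (46, 48 and 32 without replicate 2), and rescaling by median ratio without replicate 2 gave 44, 45 and 29. The counts over all genes moved as well. In the same order of comparisons 23.6%, 18.6% and 12.0% of all tested genes passed over 9 libraries, 60.2%, 62.9% and 48.8% without replicate 2, 59.6%, 65.4% and 43.6% with array weights, 13.8%, 62.2% and 4.74% in fits of 2 groups, and 40.8%, 34.4% and 29.8% with length and GC removed (66.7%, 69.4% and 59.2% without replicate 2, beside 59.3% of the members in the last). A fold of at least 2 passed 13.3%, 9.73% and 6.93% of all genes, above the 3.70%, 3.70% and 0% of the members. Without replicate 2 it passed 13.9%, 11.4% and 8.36% (9.26%, 3.70% and 0% of the members), and rescaling passed 62.1%, 64.3% and 49.7%. Leaving out 1 library at a time passed 14.4% to 60.2%, 11.3% to 62.9% and 5.81% to 48.8%. A fit with a replicate block gave 7, 7 and 2 members, beside 18.9%, 14.3% and 8.01% of all genes. Same-numbered libraries of different groups correlated at -0.31 to 0.16, so the numbers were not taken to pair libraries. The cause of these changes was not tested, and some of the fits also had fewer libraries.

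The median log2 fold change of the members kept its direction in TalaR-M against parental (0.06 to 0.59 over libraries left out) and in TalaR-DF against parental (0.56 to 0.59), and changed sign against TalaR-DF (-0.56 to 0.07), where it had no test. Without replicate 2, 16 members in TalaR-M against parental and 17 in TalaR-M against TalaR-DF had another sign than over 9 libraries, none of them called over 9. In TalaR-M against parental it turned with array weights for HMMR (0.29), PRC1 (0.48), ECT2 (0.38), SMC4 (0.30) and TOP2A (0.73), and without replicate 2 for the same genes (0.33, 0.51, 0.41, 0.34 and 0.76, and the same 2 decimals after rescaling). Over the libraries left out these ran from -0.78 to 0.33, -0.69 to 0.51, -1.05 to 0.41, -1.75 to 0.34 and -0.42 to 0.76, lowest without TalaR-M replicate 1. With length and GC removed besides, HMMR was 0.30, INCENP 0.24, PRC1 0.43, ECT2 0.36, SMC4 0.31 and TOP2A 0.71. In TalaR-M against TalaR-DF FOXM1, DLGAP5 and NCAPG turned to 0.32, 0.26 and 0.26 with array weights. Without replicate 2 FOXM1, DLGAP5, NCAPG and TOP2A were 0.35, 0.28, 0.28 and 0.24 (ranges from -0.95, -0.27, -0.43 and -0.94, again without TalaR-M replicate 1), after rescaling 0.39, 0.32, 0.32 and 0.28, and with length and GC removed 0.20, 0.34, 0.29 and 0.24. Over 9 libraries none of these was called. Against the fit without replicate 2, the sign also turned for KIF15 in TalaR-M against parental (length and GC) and in TalaR-DF against parental for NEK2 (rescaling, and length and GC), CDC25B and ESPL1 (length and GC). In TalaR-M against TalaR-DF it turned for AURKA, NEK2, KIF11 and SMC2 (rescaling) and TPX2, AURKB, NCAPH, SMC2 and MKI67 (length and GC), none of them among the 25 called there. With length and GC removed and replicate 2 left out, the median over all genes was 0.095 in TalaR-DF against parental. In TalaR-M against TalaR-DF it was -0.11 there. Counting error limits the low members most, since 1 CPM was worth 6.97 to 14.5 reads.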
